A study of Drosophila melanogaster with 12 samples.

Results

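Heads of flies expressing wild-type mouse TET2 (mTET2-wt) were compared with heads of flies that carried the dTet-Gal4 driver without an mTET2 transgene (control). The comparison was defined by the labelled genotypes and took 6 of the 12 RNA-seq libraries of the series, 3 biological replicates of mTET2-wt and 3 of control. The other 6 libraries came from flies expressing mTET2-R43G or mTET2-R1261C, a substitution in the N-terminal part of the protein and one in its catalytic domain. These 6 libraries were kept in the fit so that all groups shared an estimate of the spread between replicates. Of 17730 annotated genes, 12433 had a summed count of at least 10 over the 12 libraries and were tested.

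The mTET2-wt flies carried dTet-Gal4 and UAS-mTET2, a mouse cDNA under Gal4 control that had been integrated at a defined landing site on chromosome arm 2R. The control flies came from dTet-Gal4 crossed to w1118 and lacked the UAS insertion. Both groups therefore shared the driver, whereas the transgene protein, the inserted DNA with any marker genes it carries and the genetic background of the injected line were all confined to mTET2-wt, and these cannot be told apart here. Gal4 was produced where the fly Tet gene is active, so expression was neither uniform nor restricted to a single cell type. Each library was made from pooled heads of 1-day-old males and females, and the protein is a mammalian enzyme placed in cells that keep their own Tet gene. Replicate numbers were shared between the groups, but no label said that a number tied a particular mTET2-wt pool to a particular control pool.

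TET enzymes are dioxygenases that oxidise methylcytosine to hydroxymethylcytosine and further products, in DNA and in RNA. Fly DNA carries very little methylcytosine, and the fly enzyme is known mainly for its action on RNA and for roles in neurons, glia and muscle. Fly heads also contain fat body and haemocytes, the tissues that make most of the secreted immune peptides. In flies the Toll pathway responds chiefly to fungi and Gram-positive bacteria, the IMD pathway to Gram-negative bacteria, and JAK-STAT signalling to injury and stress. Toll and IMD signalling end in NF-kappaB factors that induce antimicrobial peptides, and Toll signalling also induces the short Bomanin peptides.

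The 6 libraries held between 16932889 and 19434046 assigned read pairs, with 17035686, 19434046 and 18981512 in mTET2-wt and 16932889, 18468191 and 17831332 in control. Levels are given below as CPM, read pairs scaled to a common library size (TMM-adjusted CPM), in the order of replicates 1, 2 and 3. A level of 3 counts corresponded to 0.162 CPM in mTET2-wt and 0.168 CPM in control, and was taken as the limit below which a gene's level could not be given. Neuronal, glial and photoreceptor genes were expressed in both groups: elav averaged 50.1 CPM in mTET2-wt and 48.9 CPM in control, repo 62.1 CPM in mTET2-wt and 61.2 CPM in control, and ninaE 9960 CPM in mTET2-wt and 10400 CPM in control. The mTET2-wt replicate 3 library stood apart from the other 5 through transcripts of digestive enzymes, which are described further on. The endogenous Tet gene (FBgn0263392) had 348, 359 and 330 CPM in mTET2-wt, against 315, 295 and 282 CPM in control, a log2 fold change of 0.22 (SE 0.11, adjusted p = 0.377). The mouse transgene itself was not among the counted genes, so its level was not measured here.

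Expression of mTET2-wt was accompanied by 91 upregulated and 58 downregulated genes (DEGs, log2 fold change of at least 1 in size and adjusted p of at most 0.05 by edgeR's quasi-likelihood test). The upregulated genes included secreted immune peptides, the transformation marker genes w and y, and genes of sugar metabolism, the cuticle and cytochrome P450 enzymes. Those downregulated included a further pair of P450 genes, a scavenger receptor, a UDP-glycosyltransferase and several lncRNAs. DEGs made up 1.2% of the genes tested, with 0.732% upregulated and 0.467% downregulated. In all 149 the mTET2-wt and control libraries did not overlap, which was true of 23.3% of all genes tested. At an unadjusted p under 0.05 there were 1824 genes, 964 higher and 860 lower in mTET2-wt.

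The median fold change over all genes was close to 0, with 49.3% of genes higher in mTET2-wt. Among the DEGs the median log2 fold change was 1.91 for those upregulated and -1.78 for those downregulated, and 42 of the 91 and 23 of the 58 reached 2 in size. In 82 of the 149 both group means were under 10 CPM, and only 22 had a group mean above 100 CPM. A further 130 genes had an adjusted p of at most 0.05 with a smaller change, 57 higher and 73 lower in mTET2-wt. In 17 DEGs 1 of the groups had at most 3 counts in every library. Where their difference from control is given below, it is a lower bound, but the medians and size counts above use their fitted values. For lncRNA:CR44737, CG5386 and CR41509 the lower bounds were 1.94-fold, 1.91-fold and 1.28-fold, under the log2 minimum of 1, so their calls rest on the fitted values. Protein-coding genes accounted for 78 upregulated and 45 downregulated DEGs of 11093 tested, and ncRNA genes for 11 of each among 1112. Chromosome arm 2R held 27 upregulated and 8 downregulated DEGs of 2545 genes tested, the autosomal arm 3R 25 and 13 of 3066, and the X 11 and 6 of 1986, in each case with the upregulated count first.

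**Figure D1:**
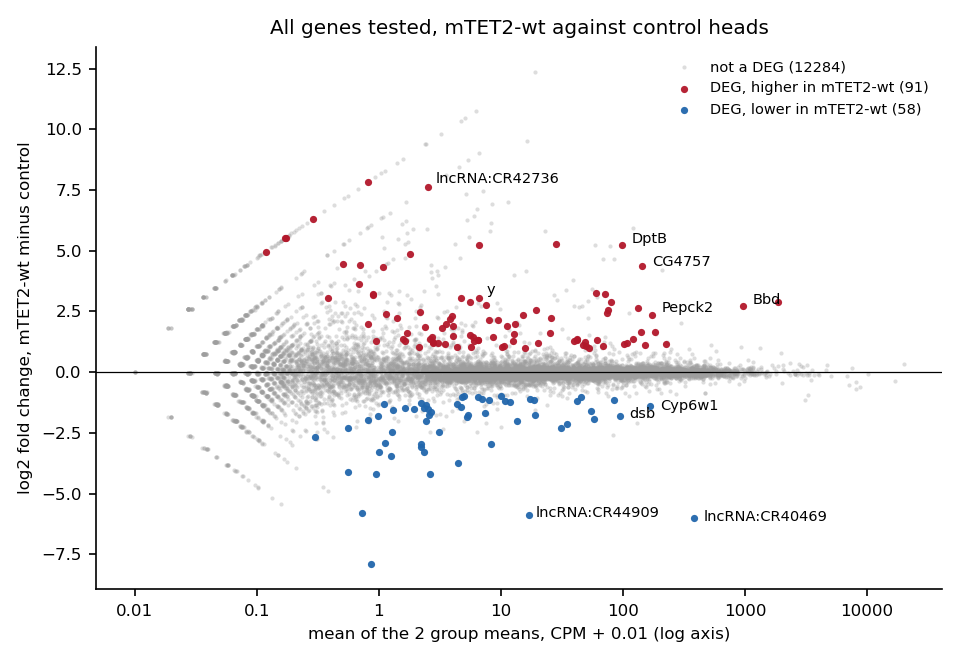
Difference between mTET2-wt and control for every gene tested. The horizontal axis is the mean of the group means (CPM, log axis) and the vertical axis the log2 fold change, mTET2-wt minus control; red points are the 91 upregulated DEGs, blue points the 58 downregulated DEGs and grey points the other genes. The cloud of grey points is centred on 0, and 82 of the 149 coloured points have both group means under 10 CPM. Fitted values of genes with hardly any counts in a group, at the left, depend on the prior count.

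The count of DEGs depended on single libraries. It was 64 upregulated and 38 downregulated without mTET2-wt replicate 1, 60 and 36 without replicate 2, and 57 and 32 without replicate 3. Leaving out control replicate 1 gave 50 and 46, control replicate 2 gave 40 and 31, and control replicate 3 gave 76 and 39. In the 16 alternative fits 57 DEGs were called every time, 34 upregulated and 23 downregulated, and no DEG changed direction in any of them.

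The smallest adjusted p among upregulated genes belonged to lncRNA:CR42736 (FBgn0261700, 2R 18377487 to 18378196, dm6), a non-coding RNA of unassigned function. It had 4.58, 5.84 and 4.61 CPM in mTET2-wt, against 0, 0 and 0.0576 CPM in control, at least 29.8-fold higher (adjusted p = 1.24e-05). Both mutant groups also expressed it, at 4.8 ± 0.433 CPM for mTET2-R43G and 5.23 ± 0.89 CPM for mTET2-R1261C (SD, n = 3 each). Expression was thus present in all 3 groups that carry an insertion and at or under the limit in every control library.

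Marker genes used in fly transgenesis were among the most strongly called. The gene w (X 2790599 to 2796466), which encodes an ABC transporter for eye pigment precursors and serves as a transformation marker, had 16.6, 19.1 and 17.7 CPM in mTET2-wt, against 3.61, 5.56 and 4.96 CPM in control (log2 fold change 1.92, SE 0.13, adjusted p = 2.46e-05). The gene y (X 356509 to 361245), needed for black cuticle pigment and used as a marker in the same way, had 14, 10.7 and 11 CPM in mTET2-wt, against 0.828, 0.876 and 2.59 CPM in control (3.06, SE 0.33, adjusted p = 0.000725). Neither gene overlapped between the groups. The mutants were also above every control library, with means for w of 22.7 CPM in mTET2-R43G flies and 22.1 CPM in mTET2-R1261C flies, and for y of 11.6 and 11.4 CPM in the same order. Of 8 genes of the eye pigment pathway tested, se was the DEG (12.5%, against 1.2% of all genes). Log2 fold changes of the 8 ran from -1.52 to 0.30. An unadjusted p under 0.05 was reached by 3, beside 1824 of the 12433 genes. The groups did not overlap in 4, beside 23.3% of all genes. The gene se, which encodes the enzyme for the drosopterin precursor, had 49.5, 54.1 and 54.1 CPM in mTET2-wt, against 117, 113 and 121 CPM in control (-1.15, SE 0.19, adjusted p = 0.00769).

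Pepck2 (FBgn0034356, 2R 18527430 to 18535749), a phosphoenolpyruvate carboxykinase of the gluconeogenic route, had 263, 303 and 307 CPM in mTET2-wt, against 51.5, 44 and 73.8 CPM in control (log2 fold change 2.37, SE 0.21, adjusted p = 0.000192). Osi2, a member of the Osiris family of cuticle-associated membrane proteins, had 20.2, 18.9 and 23.8 CPM in mTET2-wt and 4.97, 6.23 and 4.5 CPM in control (2.0, SE 0.14, adjusted p = 2.53e-05). Both genes were separated by a wide gap between the groups, and both were also high in the mutants, with means of 159 and 219 CPM for Pepck2 and 33.7 and 36.9 CPM for Osi2 in mTET2-R43G and mTET2-R1261C. The cuticular protein gene Cpr11B was upregulated by 1.38 (SE 0.13, adjusted p = 0.000286), with 60.9, 67.3 and 53.6 CPM in mTET2-wt and 20.7, 26 and 23.2 CPM in control. Edg91, a cuticular gene that responds to ecdysone, had 3.31, 4.12 and 3.58 CPM in mTET2-wt, against 0.414, 0.567 and 0.98 CPM in control (2.48, SE 0.30, adjusted p = 0.00138).

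CG8870 (FBgn0038144, 3R 13379842 to 13381509) was also compared directly with the mutants. Its level was 10.2, 15.4 and 12.9 CPM in mTET2-wt and 0.296, 0.464 and 0.231 CPM in control (log2 fold change 5.24, SE 0.50, adjusted p = 0.000286). The mutant means were 2.8 ± 1.69 CPM for mTET2-R43G and 0.838 ± 0.187 CPM for mTET2-R1261C (SD, n = 3 each), below every mTET2-wt library. The direct difference passed the test against mTET2-R1261C (log2 fold change 3.94, adjusted p = 0.00315) and not against mTET2-R43G (2.18, adjusted p = 0.0751). CG6592 (3L 6059658 to 6061378) had 1.8, 1.46 and 1.61 CPM in mTET2-wt and no count in any control library, at least 9.64-fold higher (adjusted p = 0.000192). The remaining upregulated genes among the 15 with the smallest adjusted p were Cyp6a9, Cyp6a20, asRNA:CR45600, CG11997, CG34215 and lncRNA:CR44043, with log2 fold changes between 1.01 and 2.37. Of the 15, asRNA:CR45600 was no longer called without control replicate 2 or without control replicate 3, since its fold change of 1.01 lay at the minimum.

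Among downregulated genes, lncRNA:CR44909 on arm 2L had 0.464, 0.73 and 0.467 CPM in mTET2-wt, against 38.9, 28 and 32.5 CPM in control (log2 fold change -5.88, SE 0.36, adjusted p = 1.54e-05). It shares its strand and part of its span with mir-288, CG31677 and lncRNA:CR43608, and read pairs that fell in more than 1 gene were not counted, so its level is uncertain. The gene dsb (debris buster, 3L 1893408 to 1910197), a scavenger receptor of the CD36 family that takes part in the clearance of neuronal debris, had 41.8, 42.7 and 41.6 CPM in mTET2-wt, against 167, 134 and 137 CPM in control (-1.79, SE 0.12, adjusted p = 2.46e-05). The mTET2-wt libraries were close to each other in both genes and well below the lowest control library.

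Ugt302E1 (3R 11154626 to 11156513), a UDP-glycosyltransferase, had 0.058, 0.156 and 0.57 CPM in mTET2-wt, against 5.56, 4.17 and 5.3 CPM in control (log2 fold change -4.20, SE 0.54, adjusted p = 0.00198). CG6012, CG33460 and CG33655 were likewise close to the counting limit in mTET2-wt, with log2 fold changes of -3.27, -3.10 and -2.94. CG9360 had 13.7, 13.2 and 12 CPM in mTET2-wt, against 40, 68.1 and 60.4 CPM in control (-2.12, SE 0.24, adjusted p = 0.000936). The other downregulated genes among the 15 with the smallest adjusted p fell by 1.09 to 1.92 on the log2 scale; of all 15, CG31036 was the gene that lost its call without a single library, control replicate 2.

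**Figure D2:**
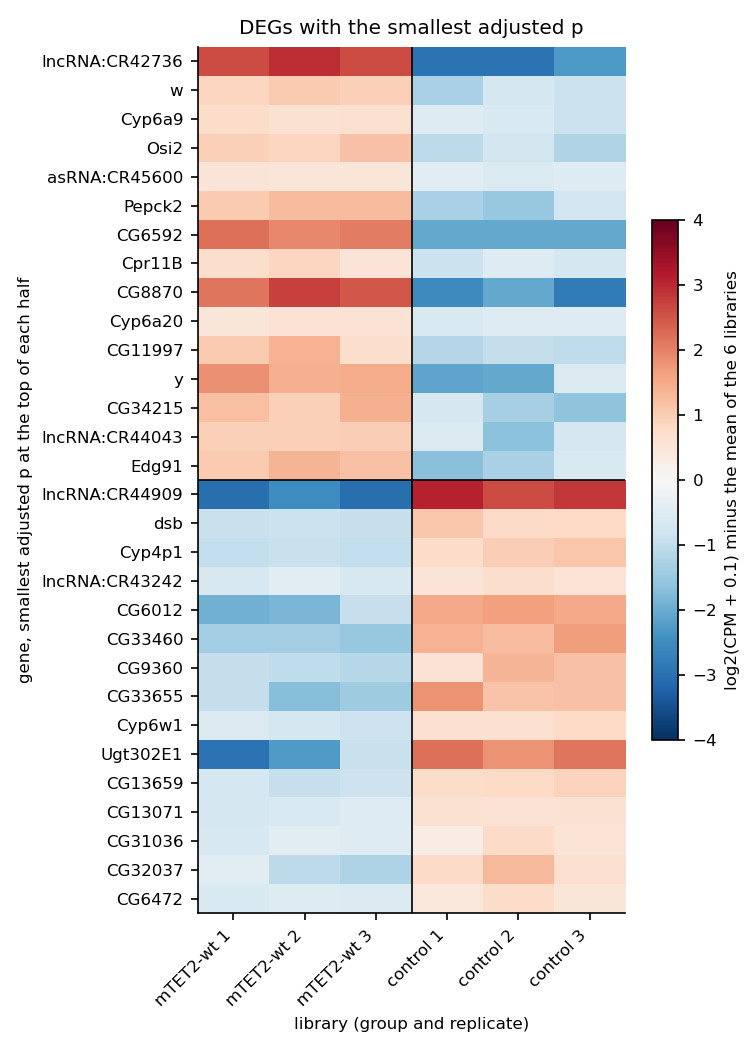
Levels of the 15 upregulated and 15 downregulated genes with the smallest adjusted p. Each row is a gene and each column a library, mTET2-wt left of control; the colour is the library's log2(CPM + 0.1) minus the mean of the 6 libraries, red above it and blue below. In none of the 30 genes do the groups overlap, and lncRNA:CR42736, CG8870 and lncRNA:CR44909 have the deepest colours.

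Cytochrome P450 enzymes, which oxidise hormones, pheromones and foreign compounds, changed in both directions: of 83 tested genes 5 were upregulated and 2 downregulated (8.43%, against 1.2% of all genes), with a median log2 fold change of 0.09. Cyp6a9 (FBgn0013771, 2R 14879356 to 14881372) had 62.9, 57.7 and 58.2 CPM in mTET2-wt, against 26.2, 24.8 and 20.6 CPM in control (1.32, SE 0.09, adjusted p = 2.46e-05). Cyp6a20, which is known for its link to male aggression, had 90.4, 96 and 95.7 CPM in mTET2-wt, against 42.5, 45.1 and 44.9 CPM in control (1.09, SE 0.12, adjusted p = 0.000648). The other 3 upregulated members, Cyp6a16, Cyp4p3 and Cyp4d1, had lower levels and adjusted p-values between 0.0251 and 0.0469. Cyp4p1 (2R 9240041 to 9242139) had 23.9, 25.4 and 24 CPM in mTET2-wt, against 79.3, 94 and 103 CPM in control (-1.92, SE 0.14, adjusted p = 3.02e-05). Cyp6w1 had 101, 92.6 and 84.5 CPM in mTET2-wt, against 233, 236 and 259 CPM in control (-1.39, SE 0.17, adjusted p = 0.00168). Cyp4p1 and its neighbour Cyp4p3 thus moved in opposite directions. The upregulated count was 2 without mTET2-wt replicate 2 or 3 and without control replicate 1 or 2, and 3 without mTET2-wt replicate 1; the downregulated pair was called in all of these.

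The secreted effectors of the humoral immune response accounted for 12 of the 91 upregulated genes. The list of 51 effector genes took in antimicrobial peptides, Bomanins, stress-induced Turandots and the secreted recognition proteins for peptidoglycan. Of these, 41 were tested, 12 were upregulated and none was downregulated, a share to be read beside the 0.732% of all genes that were upregulated. At an unadjusted p under 0.05 there were 34, beside 1824 of the 12433 genes, and in 35 the groups did not overlap, beside 23.3% of all genes. Their median log2 fold change was 2.22, and 38 of the 41 were higher in mTET2-wt. The list was drawn up with earlier results of these data known, so its direction is not independent evidence. In whole heads, more cells of a type and more RNA per cell cannot be told apart.

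The 12 calls were sensitive to single libraries and to the model. The count was 5, 7 and 5 without mTET2-wt replicates 1, 2 and 3, and 3, 1 and 7 without control replicates 1, 2 and 3. It was 23 with the 6 libraries fitted alone, 21 with DESeq2, 8 with the replicate number as a block and 4 with a robust fit. The list's median log2 fold change moved less, between 1.96 and 2.56 over the fits that left out a library.

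Antimicrobial peptides, which permeabilise or otherwise kill microbes, had large fold changes and a wide spread among control libraries. DptB (2R 18867391 to 18867895), a diptericin that acts on Gram-negative bacteria, had 250, 130 and 196 CPM in mTET2-wt, against 6.15, 1.13 and 8.07 CPM in control (log2 fold change 5.24, SE 1.02, adjusted p = 0.0216). BaraA1, which encodes antifungal Baramicin peptides, had 33.1, 31.4 and 34.5 CPM in mTET2-wt, against 6.56, 3.55 and 6.74 CPM in control (2.56, SE 0.42, adjusted p = 0.00886). Dso1, one of the antifungal Daisho peptides, had 183, 191 and 269 CPM in mTET2-wt, against 59.2, 49.4 and 96 CPM in control (1.65, SE 0.36, adjusted p = 0.035). These were the 3 DEGs among 21 antimicrobial peptide genes tested (14.3%, against 0.732% upregulated among all genes), whose median log2 fold change was 2.56. Of 25 peptide genes listed, BaraA2 was not matched to a counted gene. An upregulated DEG without a symbol near BaraA1, FBgn0283462, was not on the list (2.78, SE 0.49, adjusted p = 0.013), and its identity was not examined. In 17 of the 21 the groups did not overlap, as in 23.3% of all genes. The number called was 10 with the 6 libraries alone, 8 with DESeq2, 6 without the filter on low counts and 1 with the robust fit, and it was 1 without mTET2-wt replicate 1 and 0 without control replicate 2. The DptB call was lost without mTET2-wt replicate 1 and without any 1 of the control replicates, that of BaraA1 without control replicate 2, and that of Dso1 without any 1 of the libraries other than control replicate 3. Adjusted p over the alternatives ran up to 0.0936 for DptB, 0.0519 for BaraA1 and 0.15 for Dso1. The mutant libraries, also part of the 12-library fit, varied as well (mean ± SD, n = 3 each). In mTET2-R43G the levels were 106 ± 98 CPM for DptB, 19.3 ± 12.2 CPM for BaraA1 and 120 ± 65.4 CPM for Dso1. In mTET2-R1261C they were 61.4 ± 62.9, 14.2 ± 5.07 and 84.6 ± 12.8 CPM in the same order. The effect of this spread on the number called was not tested.

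Several classical peptide genes had large differences that missed the threshold in edgeR's 12-library fit but passed it in some alternatives. Drs, the antifungal drosomycin, had 435, 344 and 414 CPM in mTET2-wt and 48.6, 3.04 and 13.7 CPM in control, a log2 fold change of 4.20 (SE 1.01, adjusted p = 0.0575). AttC, an attacin against Gram-negative bacteria, had 178, 106 and 170 CPM in mTET2-wt and 4.85, 1.55 and 6.28 CPM in control (5.18, SE 1.26, adjusted p = 0.0601). DptA had 156, 89.3 and 104 CPM in mTET2-wt and 2.6, 1.65 and 4.96 CPM in control (5.25, SE 1.32, adjusted p = 0.0702). No library of either group overlapped the other in these 3 genes, and control replicate 2 was the lowest library in each. DESeq2 called all 3, with adjusted p of 0.00216 for Drs, 0.000447 for AttC and 0.000356 for DptA, and so did the fit of the 6 libraries alone, with 0.047, 0.00225 and 0.0014. Over all 16 alternatives Drs was called in 4, AttC in 3 and DptA in 2, and the largest adjusted p were 0.177, 0.218 and 0.234 in the same order. Drsl5 differed the other way, with 53.9, 47.6 and 49.8 CPM in mTET2-wt, against 93.3, 105 and 101 CPM in control; its log2 fold change of -0.99 (SE 0.15, adjusted p = 0.00633) lay just under the minimum. Listericin was also lower on average in mTET2-wt, at 16.7, 26.4 and 34.1 CPM, against 30, 44.3 and 64.2 CPM in control, but its groups overlapped (-0.84, adjusted p = 0.328).

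**Figure D3:**
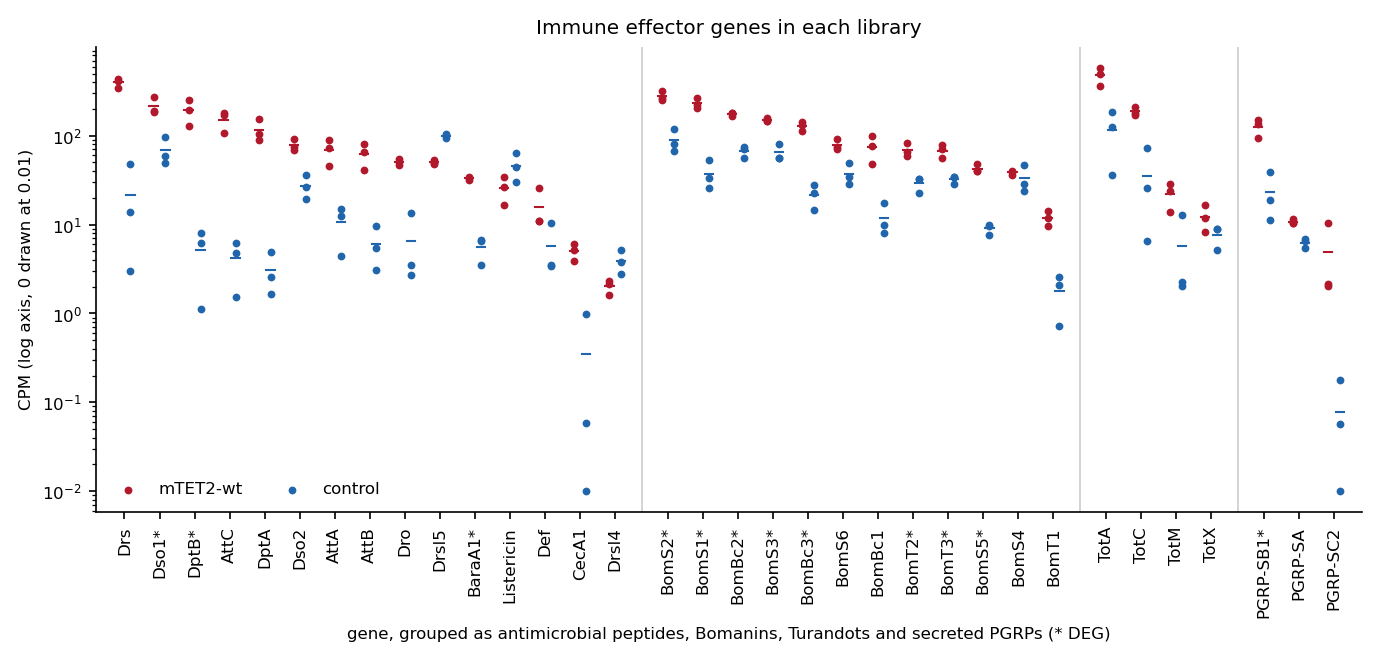
Levels of immune effector genes by library, with mTET2-wt left of control for each gene. Points are single libraries and short lines group means on a log axis of CPM, with 0 drawn at 0.01; an asterisk marks a DEG, and genes under 5 CPM in every library are left out. Control libraries of DptB, AttC, DptA and Drs spread over a wider range than their mTET2-wt libraries.

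Bomanins, short secreted peptides induced by Toll and needed for survival of Gram-positive and fungal infection, held 8 of the 12 immune DEGs. Of 12 Bomanin genes tested 8 were upregulated (66.7%, against 0.732% of all genes) and none was downregulated. Their median log2 fold change was 1.52. BomBc3 (3R 22087075 to 22088501) had 131, 112 and 144 CPM in mTET2-wt, against 27.9, 14.4 and 22.9 CPM in control (2.57, SE 0.39, adjusted p = 0.00601), and was called in all 16 alternatives. BomS1 (2R 18383949 to 18384378) had 219, 204 and 268 CPM in mTET2-wt, against 33.8, 25.5 and 52.7 CPM in control (2.63, SE 0.46, adjusted p = 0.0127). BomS2 had 268, 253 and 321 CPM in mTET2-wt and 67.4, 81.1 and 118 CPM in control (1.66, SE 0.32, adjusted p = 0.0196). In each of these every mTET2-wt library lay above the highest control library. BomS3, BomS5, BomBc2, BomT2 and BomT3 were upregulated by 1.07 to 2.22 on the log2 scale, with adjusted p between 0.0134 and 0.0341. BomS4, in contrast, overlapped between the groups, with 39.5, 36.5 and 40.5 CPM in mTET2-wt and 23.9, 28.5 and 46.8 CPM in control (0.23, adjusted p = 0.79).

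The number of Bomanins called was 4, 4 and 3 without mTET2-wt replicates 1, 2 and 3, and 1, 1 and 4 without control replicates 1, 2 and 3; it was 5 with the replicate block and 3 with the robust fit. BomBc3 was the gene that was called in every one of these fits. The short gene Bbd (bombardier), whose product is required for the short-form Bomanins to act, was chosen for mention after its values were seen. It had 1660, 1400 and 1990 CPM in mTET2-wt, against 356, 176 and 238 CPM in control (log2 fold change 2.71, SE 0.46, adjusted p = 0.00974), and was not called without control replicate 2 (largest adjusted p over the alternatives 0.057).

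Recognition proteins and stress peptides gave 1 DEG, PGRP-SB1. It was 1 of 8 peptidoglycan recognition proteins tested (12.5%, against 1.2% of all genes). PGRP-SB1, an amidase that degrades peptidoglycan, had 149, 93.6 and 136 CPM in mTET2-wt, against 18.9, 11.2 and 39.3 CPM in control (log2 fold change 2.45, SE 0.47, adjusted p = 0.0208; called in 11 of 16 alternatives). It lost its call without mTET2-wt replicate 1 or 3 and without control replicate 1 or 2. PGRP-SA, the circulating receptor upstream of Toll, had 10.3, 10.3 and 11.5 CPM in mTET2-wt and 5.5, 6.8 and 6.46 CPM in control, which passed the adjusted p (0.0167) but not the fold minimum (0.77). PGRP-SC2 was higher mainly in mTET2-wt replicate 3, with 2.15, 2.03 and 10.5 CPM in mTET2-wt and 0.177, 0 and 0.0576 CPM in control (adjusted p = 0.171). Turandots are stress-induced secreted peptides of the JAK-STAT response. Of 5 Turandot genes tested, none was called by edgeR, beside 1.2% of all genes, so the lack of a call in a list this short is not particular to them. At an unadjusted p under 0.05 there were 3, beside 1824 of the 12433 genes. DESeq2 called 2, TotA (adjusted p = 0.0197) and TotB (adjusted p = 0.0498). The median log2 fold change of the 5 genes was 2.04. TotA had 500, 362 and 575 CPM in mTET2-wt, against 186, 36.4 and 126 CPM in control (2.04, SE 0.57, adjusted p = 0.104), and TotC 182, 172 and 212 CPM in mTET2-wt, against 73.6, 6.59 and 25.9 CPM in control (2.42, SE 0.79, adjusted p = 0.162). Groups did not overlap in either gene.

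The signalling components of these pathways held no DEG. Of 13 core Toll genes, 8 core IMD genes, 9 JAK-STAT genes and 8 JNK genes tested, none was called. With 1.2% of all genes called, the lack of a call in lists this short is not particular to these pathways. Median log2 fold changes were 0.10, 0.03, 0.09 and -0.00 in the same order. The groups did not overlap in 6, 1, 3 and 4 genes, beside 23.3% of all genes. An unadjusted p under 0.05 was reached by 5, 1, 1 and 2, beside 1824 of the 12433 genes. The gene nec, a serpin that restrains Toll activation, had 126, 139 and 149 CPM in mTET2-wt, against 90.5, 86.3 and 109 CPM in control (0.53, adjusted p = 0.102). Socs36E, a feedback target of JAK-STAT, had 73.6, 74.7 and 75.9 CPM in mTET2-wt, against 66.4, 68.9 and 58.1 CPM in control (0.21, adjusted p = 0.239). Their groups did not overlap, but the differences were small and did not pass the test.

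Markers of the tissues that produce immune peptides held no DEG, and their summed levels overlapped between the groups. Summed over the fat body marker list the level was 23400, 22400 and 21700 CPM in mTET2-wt and 15200, 13700 and 25500 CPM in control. The haemocyte list summed to 616, 568 and 567 CPM in mTET2-wt and 543, 708 and 674 CPM in control. None of the 8 fat body genes or 10 haemocyte genes tested was called by edgeR, beside 1.2% of all genes. The groups did not overlap in 2 of the fat body and 3 of the haemocyte genes, beside 23.3% of all genes. As many had an unadjusted p under 0.05, beside 1824 of the 12433 genes. PPO1, a prophenoloxidase of crystal cells, had 3.19, 3.54 and 1.87 CPM in mTET2-wt and 5.56, 18.8 and 12 CPM in control (log2 fold change -2.08, adjusted p = 0.136). The part of tissue composition in the immune differences was not tested. The summed yolk protein genes, expressed in females, had 21400, 23100 and 12800 CPM in mTET2-wt and 22000, 15600 and 46000 CPM in control. The male-specific roX RNAs summed to 979, 389 and 1110 CPM in mTET2-wt and 1220, 1630 and 652 CPM in control. Both sums overlapped between the groups and varied within them, with control replicate 3 highest in the first.

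Among further DEGs with immune or stress annotation, all chosen after their values were seen, Tsf1 was the most abundant. This iron-binding transferrin of the haemolymph had 2790, 3140 and 3870 CPM in mTET2-wt, against 580, 268 and 488 CPM in control (log2 fold change 2.88, SE 0.36, adjusted p = 0.00168). GNBP-like3, related to the glucan-recognition proteins, had 124, 99.1 and 160 CPM in mTET2-wt, against 18.6, 9.69 and 12.6 CPM in control (3.23, SE 0.62, adjusted p = 0.0209). Both were separated between the groups, Tsf1 by more than the whole range of its mTET2-wt libraries. The call of Tsf1 held in all 16 alternatives, whereas GNBP-like3 was called in 10, and not without mTET2-wt replicate 1 or 3 or any 1 of the control replicates.

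The position of the DEGs was then compared with the landing site of the transgene on arm 2R, which lies near the Bomanin cluster. Within 50 kb of the site 23 genes were tested, 7 were upregulated and none was downregulated, beside 0.732% of all genes upregulated. They were lncRNA:CR42736, at 20.2 kb, and 6 Bomanins, BomS1, BomBc2, BomS2, BomS3, BomT2 and BomS5, between 26.6 and 32.6 kb from the site. In the first 25 kb 1 of 3 genes was upregulated, from 25 to 50 kb 6 of 20, from 50 to 100 kb 1 of 17, from 100 to 250 kb 1 of 29, and from 250 to 1000 kb 2 of 191. The median log2 fold change was 2.73, 0.67, 0.04, 0.02 and 0.02 in the same order. The gene upregulated from 50 to 100 kb was CG18540, and that from 100 to 250 kb was Pepck2.

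The gene at the site itself, sbb (scribbler, a transcriptional co-repressor), had 304, 306 and 281 CPM in mTET2-wt and 345, 285 and 286 CPM in control, with overlapping groups (log2 fold change -0.04, adjusted p = 0.919). Neighbours beyond the cluster, Idgf5 and the GstE glutathione transferases, were not called either. BomBc3 and BomT3, in contrast, lie on arm 3R, and DptB lies on arm 2R but more than 250 kb from the site. The effects of the insertion and of the encoded protein on the 6 Bomanins at the site cannot be told apart in these groups. The count within 50 kb was 3, 4 and 3 without mTET2-wt replicates 1, 2 and 3, and 1, 1 and 4 without control replicates 1, 2 and 3.

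**Figure D4:**
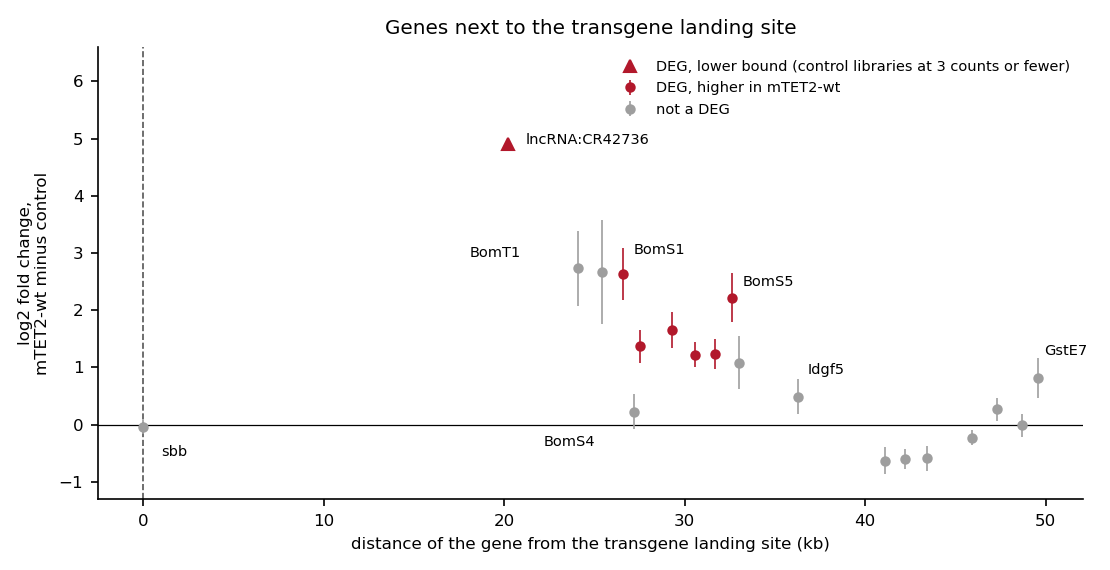
Log2 fold change, mTET2-wt minus control, against the distance of a gene from the transgene landing site (kb), for tested genes within 50 kb that had more than 3 counts in a library of each group. Bars are SE, red points are DEGs, grey points are not, and the triangle is lncRNA:CR42736 at its lower bound. The 7 DEGs lie between 20.2 and 32.6 kb on the same side, and sbb, at the site, lies near 0.

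Other DEGs also had DEGs as neighbours; how many would at this density of genes was not computed. Counting DEGs separated by gaps of at most 10 kb, 42 of the 149 fell into 18 runs, of which 2 had 3 or more genes. The longer was the run of 7 genes over 12.8 kb at the Bomanin cluster, and the other held CG16704, CG43165 and CG16713. In 13 runs the members changed in the same direction, and in 5 they changed in both, among them Cyp4p1 with Cyp4p3 and Ugt302E1 with CG4757. CG4757 (chosen after its values were seen) had 300, 247 and 274 CPM in mTET2-wt, against 27.3, 3.55 and 8.88 CPM in control (log2 fold change 4.38, SE 0.95, adjusted p = 0.0358), next to a gene that was lower in mTET2-wt. It was called in 8 of the 16 alternatives, and lost its call when any 1 of the mTET2-wt replicates, control replicate 2 or control replicate 3 was left out.

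Genes of hormones and sugar balance gave 2 DEGs of 15 tested (13.3%, against 1.2% of all genes), both upregulated: Pepck2, described above, and Akh. Pepck2 lies between 100 and 250 kb from the transgene landing site. The effects of the insertion, the line's background and the encoded protein on it cannot be told apart. Akh, the adipokinetic hormone that mobilises stored fuel, had 8.76, 9.28 and 7 CPM in mTET2-wt, against 2.96, 3.3 and 2.31 CPM in control (log2 fold change 1.54, SE 0.29, adjusted p = 0.0196). Its call was lost when mTET2-wt replicate 1 or 2 or any 1 of the control replicates was left out. Sdr, a secreted decoy of the insulin receptor, had 18.7, 19.9 and 21.1 CPM in mTET2-wt, against 38.7, 39 and 38 CPM in control, with an adjusted p of 3.65e-05 and a log2 fold change of -0.96 (SE 0.07), under the fold minimum. The groups did not overlap.

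Lists that bear on the nervous system were largely without calls. None of 27 neuropeptide genes, 12 clock genes, 16 photoreceptor genes, 10 neuronal markers or 8 glial markers was called, beside 1.2% of all genes. Akh, the upregulated peptide hormone gene described above, was counted with sugar balance and was not on the neuropeptide list. The clock gene tim, a repressor of the Clock and Cycle factors, had 247, 329 and 364 CPM in mTET2-wt, against 245, 140 and 140 CPM in control (log2 fold change 0.84, adjusted p = 0.168). Rh5, the opsin of a class of blue-sensitive photoreceptors, had 220, 208 and 196 CPM in mTET2-wt, against 284, 301 and 254 CPM in control (-0.43, adjusted p = 0.0379, under the fold minimum). CNMa, the gene of the CNMamide neuropeptide, which was not on that list and was chosen after its values were seen, had 0.87, 0.521 and 0.467 CPM in mTET2-wt, against 5.68, 16.3 and 3 CPM in control (-3.75, SE 0.58, adjusted p = 0.00633).

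The other lists had few or no DEGs by number, to be read beside the 1.2% of all genes that were called. Of 67 glutathione transferase and UDP-glycosyltransferase genes 1 was called (Ugt302E1, 1.49%). Of 39 odorant-binding protein genes 1 was called (Obp56h, downregulated, 2.56%). Of 153 genes with Or, Gr, Ir or ppk symbols 1 was called, the pickpocket gene ppk13 (upregulated, 0.654%). Obp56h had 13.1, 11 and 10.4 CPM in mTET2-wt, against 19.8, 31.8 and 24.9 CPM in control (log2 fold change -1.15, SE 0.21, adjusted p = 0.0139), and was not called without mTET2-wt replicate 2 or 3 or without control replicate 2. Of 64 cuticular protein genes 3 were upregulated and 1 was downregulated, 6.25% against 1.2% of all genes. Of 7 neprilysin genes, a class of peptidases, Nep7 was called (14.3%), upregulated by 1.20 (SE 0.19, adjusted p = 0.00633). None of 15 chaperone, 14 antioxidant, 18 autophagy, 86 ribosomal protein and 70 oxidative phosphorylation genes was called.

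The 3 DEGs that follow were picked after their values were seen and stand for no list. The gene qin, a Tudor-domain factor of transposon silencing that overlaps Tssk, had 146, 65.4 and 112 CPM in mTET2-wt, against 11.8, 10.8 and 11.4 CPM in control (log2 fold change 3.25, SE 0.44, adjusted p = 0.00287). The piRNA cluster transcript lncRNA:flam had 15.4, 14.1 and 11.7 CPM in mTET2-wt, against 8.99, 5.51 and 5.82 CPM in control (1.02, SE 0.21, adjusted p = 0.0288), and was called in 9 of 16 alternatives. It lost its call without mTET2-wt replicate 1 or 2 and without control replicate 2 or 3. HipHop, a telomere-capping protein, had 9.86, 9.33 and 8.5 CPM in mTET2-wt, against 4.32, 3.76 and 3 CPM in control (1.32, SE 0.17, adjusted p = 0.00212). The mTET2-wt libraries lay above all control libraries in these 3 genes.

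Some DEGs rested on part of the mTET2-wt libraries. Dhc16F, an axonemal dynein heavy chain chosen after its values were seen, had 1.62, 95.8 and 68.8 CPM in mTET2-wt, against 1.54, 1.18 and 1.61 CPM in control (log2 fold change 5.26, SE 1.02, adjusted p = 0.0216). Replicate 1 was at the control level, so the difference came from replicates 2 and 3, and the gene was not called without either of them or without any 1 of the control replicates. The zinc finger gene hkb, which has a role in glial development, had 0.348, 2.81 and 1.61 CPM in mTET2-wt, against 0.118, 0.258 and 0.115 CPM in control (3.21, SE 0.71, adjusted p = 0.0359), with mutant means of 5.44 and 6.2 CPM in mTET2-R43G and mTET2-R1261C. It too was not called without mTET2-wt replicate 2 or 3 or any 1 of the control replicates.

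The labels name heads, and digestive enzymes were measured to see whether gut transcripts were present in any library. Summed over the midgut enzyme list the level was 409, 356 and 3610 CPM in mTET2-wt, against 245, 485 and 242 CPM in control. Replicate 3 of mTET2-wt was 7.44 times the highest other library, and 35 of 44 detected genes were highest in it. The group means were 1460 ± 1860 CPM in mTET2-wt and 324 ± 139 CPM in control (SD, n = 3 each), a ratio of 4.5 (two-sided exact permutation test, p = 0.3, where 3 against 3 libraries allow no p below 0.1). The ratio was 1.18 without mTET2-wt replicate 3. The list took 0.0413%, 0.0351% and 0.367% of the counts in mTET2-wt, against 0.0245%, 0.051% and 0.0236% in control.

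Single enzymes showed the same library. LysD, a digestive lysozyme, had 21.4, 10 and 535 CPM in mTET2-wt and 1.36, 13 and 0.749 CPM in control (log2 fold change 5.20, SE 1.49, adjusted p = 0.112), and alphaTry, a trypsin, 9.63, 7.66 and 475 CPM in mTET2-wt and 1.89, 16.5 and 0.519 CPM in control (4.67, adjusted p = 0.203). The maltase gene Mal-B2 was level across libraries, with 123, 138 and 126 CPM in mTET2-wt and 104, 123 and 113 CPM in control. Of 42 midgut genes tested the median log2 fold change was 3.02, yet none was upregulated. Mal-B1 was called (2.38%, against 1.2% of all genes) and was downregulated. It had 4.82, 3.6 and 4.77 CPM in mTET2-wt, against 9.05, 9.12 and 10.5 CPM in control (-1.12, adjusted p = 0.0457), a call lost without any 1 of the 6 libraries. At an unadjusted p under 0.05 there were 21, beside 1824 of the 12433 genes. The groups did not overlap in 9 of the 42, beside 23.3% of all genes. Among them, Jon25Bi had 5.28, 2.92 and 106 CPM in mTET2-wt and no count in control. Jon25Bii had 3.13, 1.88 and 92.4 CPM, against 0, 0 and 0.115 CPM in control. Over all genes, 94 were at least 4 times higher in mTET2-wt replicate 3 than in any other of the 6 libraries and reached 5 CPM, among them 23 of the midgut list. The same count was 3 for control replicate 2, all of them Hsp70 genes, 7 for control replicate 3, and 0 for each of the other 3 libraries. Without the midgut genes in the fit 147 of the 149 DEGs were called, and without the mTET2-wt replicate 3 library 80 were. Leaving out mTET2-wt replicate 1 or 2 kept 89 and 87, and leaving out control replicates 1, 2 and 3 kept 90, 67 and 96.

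**Figure D5:**
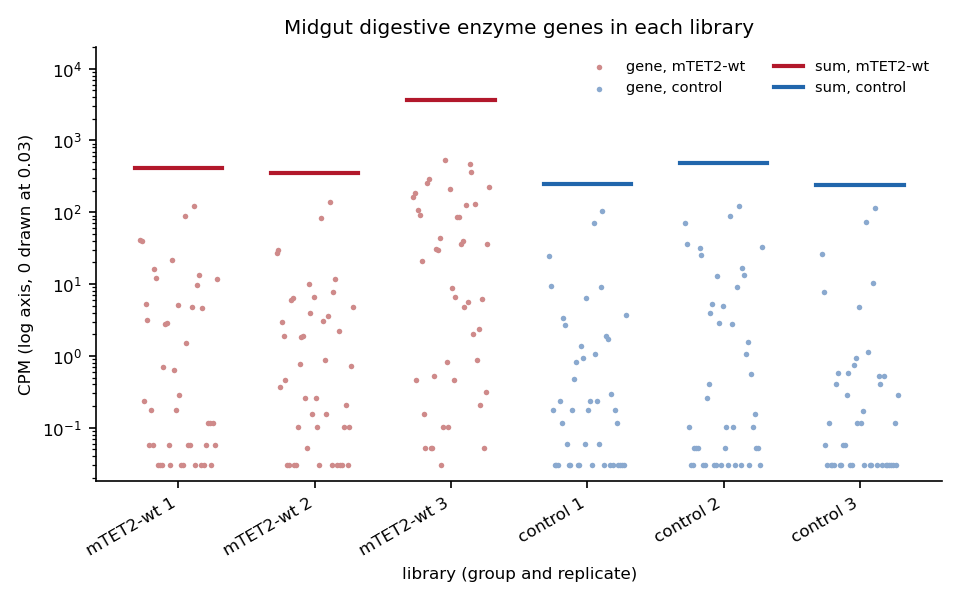
Midgut enzyme transcripts by library, mTET2-wt left of control. Each point is 1 of the 44 detected genes of the list and each thick line their sum, on a log axis of CPM with 0 drawn at 0.03. The sum is 3610 CPM in mTET2-wt replicate 3 and between 242 and 485 CPM in the other 5 libraries.

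The mTET2-wt heads were also set directly against the mutant heads, to see which of the 149 DEGs differed between wild-type and mutant protein. In this direct test 10 genes of 12433 differed between mTET2-wt and mTET2-R43G (0.0804%) and 18 between mTET2-wt and mTET2-R1261C (0.145%), by the same thresholds. Of the 149 DEGs, 4 differed from mTET2-R43G and 7 from mTET2-R1261C, 8 in all. The 149 were themselves chosen with the same mTET2-wt libraries.

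CG31036 had 10.2, 11.7 and 11.3 CPM in mTET2-wt and 19.6, 27.5 and 23.7 CPM in control, with mutant means of 22.8 CPM for mTET2-R43G and 22.9 CPM for mTET2-R1261C. The antisense RNA asRNA:CR45137 had 1.86, 2.87 and 1.4 CPM in mTET2-wt and at most 3 counts in each control library, at least 12.1-fold higher (adjusted p = 0.00601), with means of 0.0803 and 0.075 CPM in mTET2-R43G and mTET2-R1261C. CG6142 had 6.73, 5.99 and 4.98 CPM in mTET2-wt and 2.96, 2.83 and 2.82 CPM in control (log2 fold change 1.04, SE 0.17, adjusted p = 0.008), with mutant means of 2.72 and 2.84 CPM, and lost its call without mTET2-wt replicate 1. In these 3 genes both mutant means lay on the control side, and the direct test separated mTET2-wt from both mutants.

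The transcript lncRNA:CR40469 (X 122493 to 122706) had the strongest downregulation among the genes named here and, like asRNA:CR45137 and CG6142, was chosen after its values were seen. It had 12.4, 10.5 and 12 CPM in mTET2-wt, against 496, 917 and 851 CPM in control (-6.02, SE 0.85, adjusted p = 0.00377). Its mean was 67.5 ± 78.6 CPM for mTET2-R43G and 344 ± 169 CPM for mTET2-R1261C (SD, n = 3 each), so the spread within the mutant groups was large. Among the immune effectors 32 of 41 were higher in mTET2-wt than in mTET2-R43G, with a median log2 fold change of 0.56 and no DEG (smallest adjusted p 0.333). Against mTET2-R1261C 32 of 41 were likewise higher in mTET2-wt, with a median of 0.97 and 1 DEG, beside 0.145% of all genes. This DEG, the drosomycin-like gene Drsl4, was lower in mTET2-wt (adjusted p = 0.0444). Of 83 P450 genes 60 were higher in mTET2-wt than in mTET2-R43G and 37 than in mTET2-R1261C. For 64 cuticular protein genes the counts were 39 and 30. The share of all genes higher in mTET2-wt than in a mutant is not given here. The immune list was drawn up with earlier results known, so these directions are not independent evidence.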

How the data were processed

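RNA was taken from pooled heads, ribosomal RNA was depleted and stranded libraries were sequenced in pairs. The authors aligned reads with HISAT2 2.1.0 to the fly genome (dm6, with a FlyBase annotation) and counted pairs over whole gene bodies, on the reverse strand, with featureCounts (1.6.0 in the table's header, 2.0.1 in the submitters' processing notes). Pairs that mapped to several places or fell in several genes were not counted. The deposited values are raw counts per gene, not normalised; introns contribute to them.

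Following the study's filter, genes needed at least 10 counts summed over all 12 libraries. Counts were scaled by TMM (factors 0.959 to 1.051) and fitted with edgeR 4.0.16 (R 4.3.3, limma 3.58.1) in a model with a mean per group over all 12 libraries. The quasi-likelihood test was adjusted by Benjamini-Hochberg over 12433 genes, and DEGs needed an adjusted p of at most 0.05 and a log2 fold change of at least 1 in size. Median biological variation was 13.55%, and ribosomal RNA genes took 2.19% to 7.31% of counts. Errors are SE for fold changes and SD for levels. The labels call the samples biological replicates and do not say more of how the pools were made, so p-values measure the spread between these pools.

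The genes named in the text were the 15 with the smallest adjusted p in each direction and the members of gene lists; others are marked. Lists and members were chosen with earlier results of these data known. Alternatives were DESeq2 1.42.0, RLE size factors, other filters, a robust fit, the replicate block, the 6 libraries alone, leaving out ribosomal or midgut genes or each library, and, added after seeing the data, the roX level as a covariate. Promoter motifs were not analysed here, and no columns of other samples were left over.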

Additional observations from a re-analysis of the deposited data

Results flagged for a closer look

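Some DEGs of mTET2-wt against control also differed when mTET2-wt was set directly against a mutant in the same 12-library fit (edgeR's quasi-likelihood test, log2 fold changes of mTET2-wt over mutant). Against mTET2-R43G these were CG31036 (-1.05, adjusted p = 0.0212), asRNA:CR45137 (4.55, adjusted p = 0.029), CG6142 (1.11, adjusted p = 0.0295) and HipHop (1.03, adjusted p = 0.0418). Against mTET2-R1261C they were CG8870 (3.94, adjusted p = 0.00315), asRNA:CR44291 (3.56, adjusted p = 0.0102), CG31036 (-1.05, adjusted p = 0.0141), asRNA:CR45137 (4.59, adjusted p = 0.0189), CG6142 (1.05, adjusted p = 0.0317), CG9514 (-1.67, adjusted p = 0.0317) and lncRNA:CR40469 (-4.89, adjusted p = 0.0422). The antisense RNAs had at most 3 counts in the low groups, so their fitted values depend on the prior count. With 3 libraries a group, single libraries could not be tested as outliers within a group.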

How the results depend on the processing

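The upregulated DEGs numbered 156 with DESeq2, and without a minimum fold there were 148 upregulated and 131 downregulated genes at the same adjusted p. The upregulated immune effectors numbered 21 with DESeq2, 23 with the 6 libraries alone and 4 with the robust fit; their median log2 fold change was 2.0 without the filter on low counts and 2.47 with the replicate block or the roX level as a covariate. Leaving out 1 library gave 40 to 76 upregulated and 31 to 46 downregulated DEGs, 1 to 7 upregulated immune effectors and a median of 1.96 to 2.56. The midgut ratio of 4.5 was 6.31 without Mal-B2, and 1.18 to 6.2 without 1 library. With the replicate block the DEGs were 78 upregulated and 49 downregulated, 108 of them among the 149. Same-numbered mTET2-wt and control libraries deviated with correlations of 0.01, -0.35 and -0.25. With 3 libraries a group these values cannot show whether a number marks a shared batch. Without the 117 ribosomal RNA genes all 149 were called. RLE size factors kept 146 of the 149, DESeq2 141, the 6 libraries alone 113 and the robust fit 124. The causes of these shifts were not tested. Genes near the counting limit and those overlapping others on the same strand (6 DEGs) are the least certain. Of 3 libraries a group, any 1 could decide a call, and 57 of the 149 DEGs were called in every alternative.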
